A study of Homo sapiens with 4 samples.

Results

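FOXC1 is a forkhead transcription factor, and its binding was examined here at 10 genes of the epithelial to mesenchymal transition (EMT). These were the transcription factors SNAI1, SNAI2, ZEB1, ZEB2, TWIST1 and TWIST2, the epithelial effector CDH1, and the mesenchymal effectors CDH2, VIM and FN1. To collect the sites, every FOXC1 peak with its summit in the annotated body of a member gene or within 50 kb of it was taken. This gave 35 of the 22405 peaks of replicate 1 and 68 of the 41789 peaks of replicate 2. Where peaks of both replicates overlapped, they were merged into a shared region, and 19 of the 13238 shared regions in the genome lay in the windows of the members. The data came from chromatin immunoprecipitation with sequencing (ChIP-seq) of J82, an established human bladder cancer cell line. The cells were grown in DMEM with 10% FBS, with no treatment named in the labels. The 2 ChIP libraries were biological replicates made with the FOXC1 antibody D8A6, and 2 input libraries without antibody served as background for peak calling. The files held no expression values, so the epithelial or mesenchymal state of the cells could not be checked against markers, and 1 cell line in 1 condition allowed no test between groups.

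In EMT, epithelial cells give up their tight contacts and polarity and acquire a migratory, mesenchymal state. SNAI, ZEB and TWIST factors bind E-box sequences, and SNAI and ZEB factors are known as repressors of CDH1, which encodes the adhesion protein E-cadherin. N-cadherin (CDH2), the intermediate filament protein vimentin (VIM) and the matrix protein fibronectin (FN1) are classic markers of the mesenchymal state. FOXC1 carries a forkhead domain, which binds variants of the sequence GTAAACA.

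The DNA under the summits is shown for the strongest shared regions of SNAI1, ZEB2, CDH2 and VIM. By the mean of both replicates these 4 members had the highest enrichment, and their regions passed an irreproducible discovery rate (IDR) of 0.05. The strongest region of SNAI2 also passed and is not shown, though in replicate 1 it was above that of SNAI1. Each sequence is the plus strand of hg19, 50 bp to either side of the summit. Matches to the AP-1 sequence TGAGTCA are in capitals, and they read TGACTCA where the match is on the minus strand.
SNAI1, chr20:48565458-48565558: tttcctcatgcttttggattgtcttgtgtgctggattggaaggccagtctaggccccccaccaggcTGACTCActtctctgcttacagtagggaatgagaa
ZEB2, chr2:145311051-145311151: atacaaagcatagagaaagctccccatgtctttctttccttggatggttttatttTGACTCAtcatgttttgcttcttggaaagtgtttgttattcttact
CDH2, chr18:25544876-25544976: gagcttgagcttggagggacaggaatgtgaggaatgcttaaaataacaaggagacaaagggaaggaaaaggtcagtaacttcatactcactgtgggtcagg
VIM, chr10:17256129-17256229: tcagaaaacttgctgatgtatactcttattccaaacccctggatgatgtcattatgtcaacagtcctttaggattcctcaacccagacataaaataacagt

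Of the 19 shared regions, 4 held a forkhead consensus at the summit (GTAAACA or, in place of it, any of the forms GTAAATA and ATAAACA and ATAAATA, on either strand), and their windows are shown in the same way with that match in capitals. These windows were picked with their values known.
SNAI1 downstream, chr20:48606855-48606955: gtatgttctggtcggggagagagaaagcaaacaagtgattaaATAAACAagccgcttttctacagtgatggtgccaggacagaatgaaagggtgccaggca
TWIST1 downstream, chr7:19049827-19049927: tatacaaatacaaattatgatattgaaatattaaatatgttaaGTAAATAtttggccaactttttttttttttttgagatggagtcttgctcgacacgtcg
CDH2 intron 7, chr18:25576957-25577057: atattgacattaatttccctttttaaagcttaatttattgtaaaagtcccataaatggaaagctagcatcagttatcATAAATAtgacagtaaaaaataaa
CDH2 intron 2, chr18:25707877-25707977: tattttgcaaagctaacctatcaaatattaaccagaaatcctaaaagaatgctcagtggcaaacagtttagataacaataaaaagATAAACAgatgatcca

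All 10 members had at least 1 peak in each replicate, and 8 of them, all but ZEB1 and CDH1, had at least 1 shared region. Among 20163 protein-coding genes with windows made in the same way, 62.7% had a replicate 1 peak, 80.1% had a replicate 2 peak and 46.6% had a shared region. Reproducible regions, those at an IDR of 0.05 or less, were present at 5 members, SNAI1, SNAI2, ZEB2, CDH2 and VIM, and at 26.8% of the protein-coding genes. The IDR estimates the rate of irreproducible sites among paired peaks ranked at least as high, and a low value marks a region ranked high in both replicates. In all, 7 of the 19 regions were reproducible, beside 45.2% of all shared regions.

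The windows of the members spanned 1.98 Mb and held 9.60 shared regions per Mb, compared with 4.28 over chromosomes 1 to 22, X and Y and 5.19 over the summed windows of protein-coding genes. The windows of the 6 transcription factor genes held 12 shared regions, or 10.4 per Mb, of which 3 lay in gene bodies. Those of the 4 effector genes held 7, or 8.45 per Mb, of which 5 lay in gene bodies. With 1 list per replicate these densities are descriptions, and windows of the members ran from 104 to 345 kb against a median of 127 kb for protein-coding genes.

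**Figure D1:**
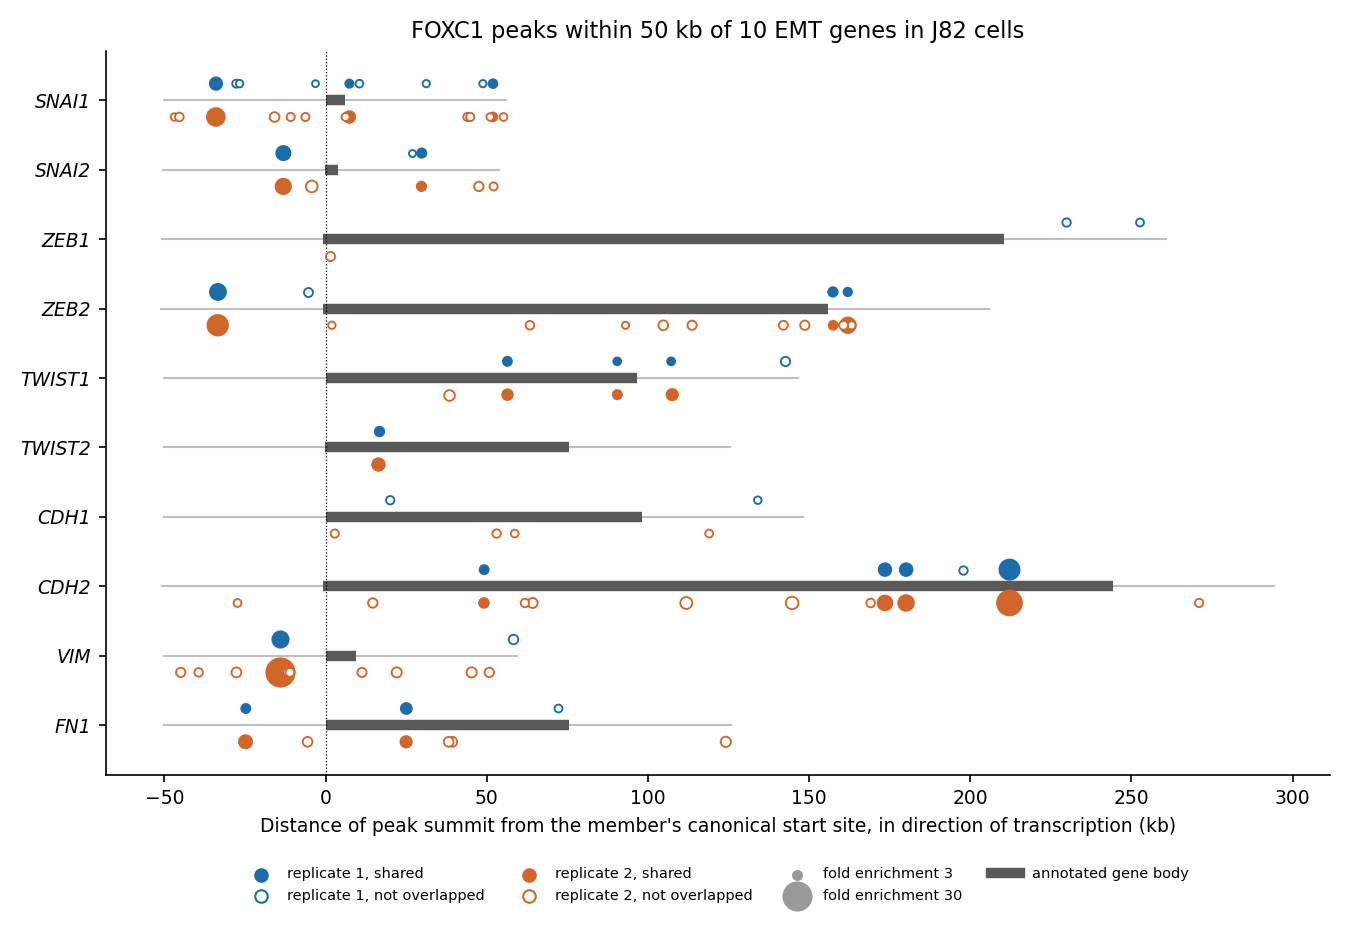
Every FOXC1 peak in the windows of the 10 EMT genes, by distance of its summit from the canonical start site of the gene in kb, in the direction of transcription. Replicate 1 is above and replicate 2 below each gene, filled points are peaks in shared regions, open points are peaks with no partner, point size follows fold enrichment, and the dark bar is the annotated gene body. The largest points lie 14.1 kb upstream of VIM and 212 kb into CDH2, and ZEB1 and CDH1 have open points only.

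The number of shared regions per gene ranged from 0 to 4. CDH2 had 4, SNAI1, ZEB2 and TWIST1 had 3 each, SNAI2 and FN1 had 2 each, TWIST2 and VIM had 1 each, and ZEB1 and CDH1 had 0. More shared regions than at CDH2 were found at 2.59% of the protein-coding genes, more than at SNAI1, ZEB2 or TWIST1 at 4.74%, and more than at TWIST2 or VIM at 20.3%. A longer gene has a longer window, and the CDH2 window of 345 kb was the longest of the 10.

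**Figure D2:**
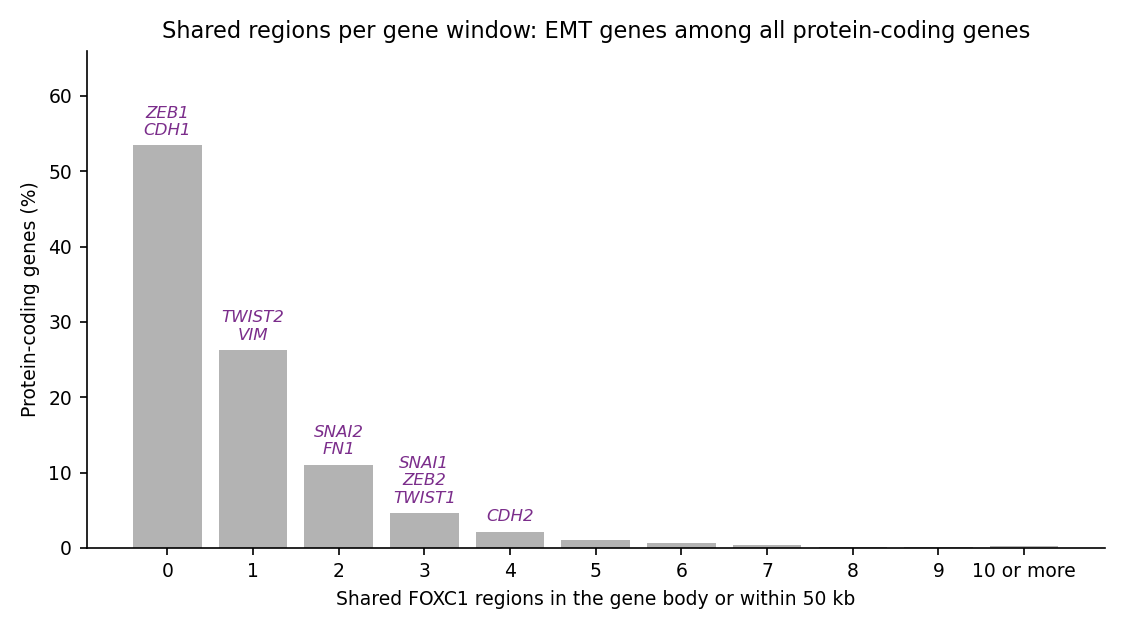
Share of the 20163 protein-coding genes (%) by the number of shared FOXC1 regions in the gene body or within 50 kb, with the 10 EMT genes written above the bar they belong to. ZEB1 and CDH1 fall in the bar of genes with 0 regions, which is the tallest, and CDH2 in the bar with 4.

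Signal strength was compared through the fold enrichment, the ratio of reads over the summit to the local background as deposited. At the 19 regions of the members its median was 3.41 in replicate 1 and 6.11 in replicate 2, compared with 3.79 and 6.71 at all shared regions. It was higher in replicate 2 in 18 of the 19, beside 91.9% of all shared regions, with a median ratio of 1.51 over replicate 1 (1.69 at all shared regions). The exception was a region 157 kb from the ZEB2 start. Because of this general offset, each value below is given for both replicates.

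By the mean over both replicates, the strongest regions of the members came in the order VIM, CDH2, ZEB2, SNAI1, SNAI2, FN1, TWIST2 and TWIST1. Neighbours in this order overlapped in the range of their replicates, except SNAI2 and FN1. CDH2 was above VIM in replicate 1 and below it in replicate 2, and SNAI2 was above SNAI1 in replicate 1 and below it in replicate 2. Few protein-coding genes had a stronger region in their window than VIM (3.76%) or CDH2 (4.12%), and a larger share did so for FN1 (32.3%), TWIST2 (33.2%) and TWIST1 (40.5%).

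**Figure D3:**
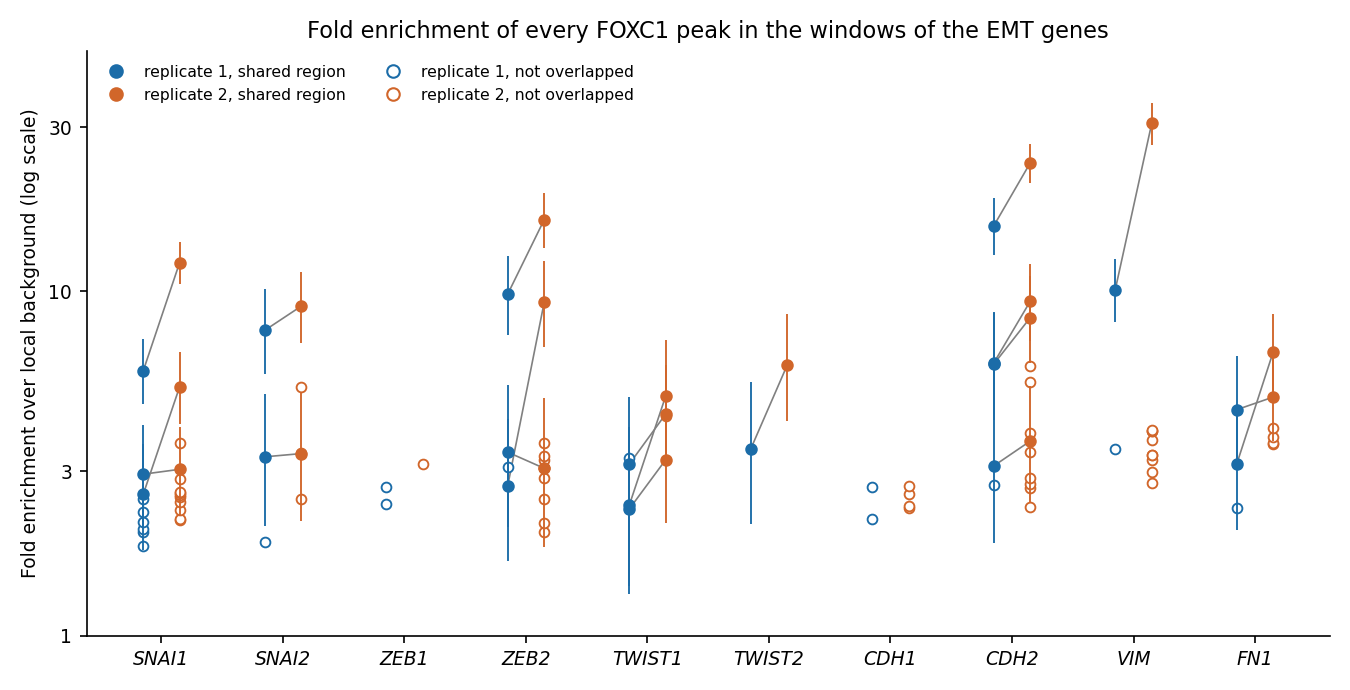
Fold enrichment over local background (log scale) of every FOXC1 peak in the windows of the 10 EMT genes, replicate 1 in blue and replicate 2 in orange. Filled points joined by a line are the peaks of a shared region, with exact Poisson 95% intervals of the reads as bars, and open points have no partner. The VIM region rises from 10.1 to 30.8 and the strongest CDH2 region from 15.5 to 23.6, and peaks at ZEB1 and CDH1 stay at or below 3.15.

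SNAI1 encodes Snail, a zinc finger factor that represses E-cadherin. Its gene lies at chr20:48599517-48605423 on the plus strand, and the gene body itself held no peak of either replicate. The strongest shared region of the window, chr20:48564773-48566147, lay 34.01 kb upstream of the start site in an intron of RNF114, a ubiquitin ligase gene whose nearest coding start was 12564 bp away. Its fold enrichment was 5.87 in replicate 1 (84 reads, 95% interval 4.70 to 7.25) and 12.1 in replicate 2 (200 reads, 10.5 to 13.9), a mean of 8.996 ± 4.42 (SD, n = 2), with an IDR of 1.30e-06. The site was strong in both lists, and 20.8% of all shared regions had a higher mean. Of all protein-coding starts, that of RNF114 rather than SNAI1 was the nearest.

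The other shared regions near SNAI1 lay downstream of the gene and were weaker. The region at chr20:48606582-48607254, 7.4 kb from the start site, had fold enrichments of 2.57 and 5.28 with 31 and 69 reads and an IDR of 0.190, and its replicate summits lay 2 bp apart. It was the shared region closest to the start site of any member, and it held ATAAACA 5 bp from its summit. The region at chr20:48651231-48651641 had fold enrichments of 2.94 and 3.04 and an IDR of 0.319, and lay nearer to the long noncoding RNA gene TRERNA1 (6606 bp) than to SNAI1 (51.9 kb).

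In all, the SNAI1 window held 9 peaks of replicate 1 and 13 of replicate 2, and 1.57% of the protein-coding genes had more replicate 2 peaks. The local background there was also high. Its median over the peaks of the window was 11.4 reads in replicate 1 and 9.99 scaled reads in replicate 2, compared with 4.95 and 4.29 over all peaks, and 1.56% and 2.63% of all peaks had a higher one. At the other 9 members the medians were 4.16 to 6.26 and 3.75 to 5.11. Peaks near SNAI1 therefore had more reads behind a given fold enrichment, and the part of this background in their number was not tested.

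SNAI2 encodes Slug, the close relative of Snail, and lies at chr8:49830157-49834299 on the minus strand. Its strongest shared region, chr8:49846751-49847453, lay 13.1 kb upstream between genes. Fold enrichments were 7.70 in replicate 1 (49 reads, 5.74 to 10.1) and 9.05 in replicate 2 (69 reads, 7.08 to 11.4), a mean of 8.38 ± 0.955 (SD, n = 2), and the IDR was 0.000472. The intervals of the replicates overlapped. SNAI2 itself was the gene with the nearest protein-coding start. This region held TGAGTCA 33 bp from its summit and the E-box CAGGTG, the sequence that Snail and ZEB factors bind, 28 bp from it.

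The other shared region of SNAI2, chr8:49803979-49804350, lay 29.8 kb downstream of the start site with fold enrichments of 3.31 and 3.38 on 20 and 21 reads (IDR 0.370). Replicate 2 also had a peak 4.27 kb upstream of the start site, with a fold enrichment of 5.26 and 33 reads, for which replicate 1 listed no partner. This peak, like the other unpaired peaks given for members, was picked with its values known.

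ZEB1 and ZEB2 encode related zinc finger homeobox repressors of E-cadherin, and they differed in shared regions, with 0 at ZEB1 and 3 at ZEB2. ZEB1 lies at chr10:31607424-31818742 on the plus strand. Its peaks in the replicates were far apart. Replicate 1 had 2 peaks beyond the 3′ end of the gene, with fold enrichments of 2.71 and 2.41 on 13 and 14 reads. Replicate 2 had 1 peak in intron 1 of the canonical transcript, 1417 bp from its start site and 27 bp from that of another ZEB1 transcript, with a fold enrichment of 3.15 on 19 reads. The shared region nearest to the gene body lay 52.9 kb beyond its 3′ end, just outside the window, with fold enrichments of 2.71 and 9.53 and an IDR of 0.414. The ZEB1 count of 0 therefore depended on how far from the gene the window reached. By distance to the start site, the nearest shared region was 184 kb upstream, with fold enrichments of 12.1 and 17.3 and an IDR of 3.59e-07.

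At ZEB2 (chr2:145121931-145278624, minus strand), the strongest shared region, chr2:145310763-145311462, lay 33.4 kb upstream in an intron of the long noncoding RNA gene LINC01412. Its fold enrichment was 9.82 in replicate 1 (57 reads, 7.48 to 12.7) and 16.1 in replicate 2 (118 reads, 13.4 to 19.3), with a mean of 12.98 ± 4.47 (SD, n = 2) and an IDR of 3.28e-06. The nearest protein-coding start was that of ZEB2. This was the highest mean among the regions of the 6 transcription factor genes, and 10.9% of all shared regions had a higher one. TGAGTCA lay 8 bp from its summit.

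Downstream of ZEB2, 2 shared regions lay beyond the 3′ end of the gene. At chr2:145115365-145115965 the fold enrichment was 2.72 in replicate 1 (17 reads, 1.65 to 4.27) and 9.29 in replicate 2 (48 reads, 6.90 to 12.2). The intervals did not overlap, the ratio of 3.41 was exceeded at 2.41% of all shared regions, and the IDR of 0.401 was the highest among the 19 regions. At chr2:145120003-145120372 the values were 3.41 and 3.06 (17 and 15 reads, IDR 0.397). Within the gene body, replicate 2 listed 7 peaks with fold enrichments of 1.999 to 3.64, and replicate 1 listed none.

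TWIST1 and TWIST2 encode basic helix-loop-helix factors, and neither had a reproducible region. The canonical TWIST1 transcript covers chr7:19155091-19157259 on the minus strand. The annotated gene body spans 96.6 kb in all because of a long transcript marked for nonsense-mediated decay. All 3 shared regions of TWIST1 lay along or beyond that transcript, 56.4, 90.5 and 107 kb from the start site. The strongest by its mean, chr7:19100623-19100984, had fold enrichments of 3.15 (17 reads, 1.91 to 4.93) and 4.40 (34 reads, 3.09 to 6.10), a mean of 3.77 ± 0.887 (SD, n = 2) and an IDR of 0.152. The farthest, chr7:19049558-19050140, had 2.39 and 4.96 on 12 and 25 reads, and its replicate summits lay 343 bp apart. The −log10 q in replicate 1 was 0.495 there and 0.751 at the region 90.5 kb from the start site. With windows drawn around canonical transcripts, chosen after the data had been seen, TWIST1 had 0 shared regions, and the members together had 16 in 7 genes. The share of protein-coding genes with a shared region in such windows was not worked out.

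TWIST2 (chr2:239756673-239832230, plus strand) had 1 peak in each replicate, and these formed a shared region in its intron 1, chr2:239772951-239773338, 16.4 kb from the start site. Its fold enrichment was 3.49 in replicate 1 (17 reads, 2.11 to 5.46) and 6.11 in replicate 2 (31 reads, 4.22 to 8.58), a mean of 4.80 ± 1.85 (SD, n = 2). The IDR was 0.103. The value lay in the middle of the range genome-wide, with 56.9% of all shared regions above it.

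CDH1 encodes E-cadherin, the adhesion protein whose loss is a hallmark of EMT, and lies at chr16:68771195-68869440 on the plus strand. No shared region lay in its window. Replicate 1 had a peak in intron 2, 20.1 kb from the start site, with a fold enrichment of 2.71 on 13 reads, and a peak of 2.18 in an intron of the neighbouring gene TANGO6. Replicate 2 had 3 peaks in intron 2, with fold enrichments of 2.58, 2.73 and 2.35, and 1 of 2.37 in TANGO6. The peaks of the replicates were at different positions, and all 6 were below the median fold enrichment of their own list, 3.02 in replicate 1 and 3.63 in replicate 2. The nearest shared region lay 78.3 kb upstream in an intron of CDH3, the P-cadherin gene, with fold enrichments of 3.29 and 3.40 (IDR 0.255).

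CDH2 encodes N-cadherin, which mesenchymal cells carry in place of E-cadherin, and lies at chr18:25512843-25757910 on the minus strand. All 4 of its shared regions lay inside the gene body, and 3 of them were reproducible. The strongest, chr18:25544543-25545321, lay in intron 14 of the canonical transcript, 212 kb from its start site and within an exon of a retained-intron transcript whose start was 873 bp away. Its fold enrichment was 15.5 in replicate 1 (112 reads, 12.8 to 18.6) and 23.6 in replicate 2 (234 reads, 20.7 to 26.8), a mean of 19.6 ± 5.74 (SD, n = 2) and an IDR of 4.95e-09, and the summits lay 3 bp apart. Of all shared regions, 4.93% had a higher mean.

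The other reproducible regions of CDH2 were about equal to each other. The region in intron 7, chr18:25576302-25577331, had fold enrichments of 6.196 and 9.36 on 31 and 61 reads, a mean of 7.78 ± 2.24 (SD, n = 2) and an IDR of 0.00117. That in intron 6, chr18:25583152-25583974, had 6.15 and 8.39 on 31 and 47 reads, a mean of 7.27 ± 1.58 (SD, n = 2) and an IDR of 0.00667. They lay 180 and 174 kb from the start site, and in each replicate their values differed by less than the counting intervals. The remaining region, in intron 2, was weaker, with 3.11 and 3.67 and an IDR of 0.233. Replicate 2 listed 8 further peaks with no partner, the strongest of which, in intron 2, had a fold enrichment of 6.06 on 38 reads and a −log10 q of 14.97.

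VIM (chr10:17270240-17279592, plus strand) had 1 shared region, chr10:17255670-17256782, and it had the highest mean of all 19. It lay 14.1 kb upstream between genes, 2195 bp from a start site of the antisense gene VIM-AS1. The start site of TRDMT1, which encodes a tRNA methyltransferase, was the nearest of the protein-coding genes at 12508 bp. The fold enrichment was 10.1 in replicate 1 (91 reads, 8.17 to 12.4) and 30.8 in replicate 2 (203 reads, 26.7 to 35.3), a mean of 20.4 ± 14.6 (SD, n = 2), and the IDR was 4.79e-08. The intervals were far apart, and a ratio above 3.04 was found at 4.76% of all shared regions. In reads over the summit the ratio was 2.23, and the local background was 8.09 reads in replicate 1 and 5.0 scaled reads in replicate 2.

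Around VIM, replicate 2 listed 9 further peaks with fold enrichments of 2.77 to 3.97, and replicate 1 listed 1 at 3.49. None of these overlapped, and the VIM gene body held no peak. The upstream site was the sole region of the VIM window found in both lists.

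FN1 encodes fibronectin, an extracellular matrix protein, and lies at chr2:216225163-216300796 on the minus strand. The higher of its shared regions by the mean, chr2:216325380-216325912, lay 24.8 kb upstream in an intron of the gene ENSG00000225166, with fold enrichments of 3.16 (22 reads, 2.03 to 4.71) and 6.68 (58 reads, 5.10 to 8.60), a mean of 4.92 ± 2.49 (SD, n = 2) and an IDR of 0.121. The other, chr2:216275537-216276064 in intron 13, was steadier between the replicates at 4.53 and 4.93 on 28 and 48 reads, a mean of 4.73 ± 0.282 (SD, n = 2), with an IDR of 0.0733. It lay 1087 bp upstream of the start of a retained-intron transcript. Neither region passed an IDR of 0.05.

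**Figure D4:**
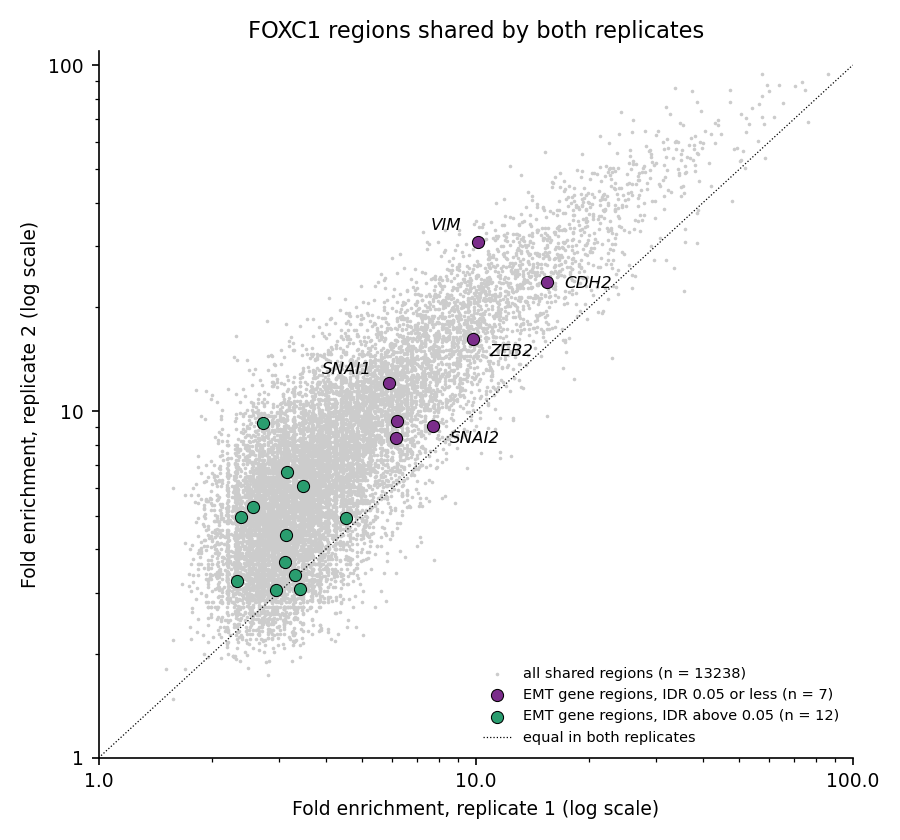
Fold enrichment in replicate 1 against replicate 2 (both log scale) at the 13238 shared FOXC1 regions in grey, with the 19 regions of the EMT genes coloured by whether their IDR was 0.05 or less. The strongest reproducible regions of VIM, CDH2, ZEB2, SNAI1 and SNAI2 are named, and 18 of the 19 regions lie above the line of equal values.

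Most sites of the members, like most of all shared regions, lay more than 2 kb from any annotated start site. None of the 19 shared regions had its summit within 2 kb of the canonical start site of its member gene (exact binomial 95% interval 0 to 17.6%). The nearest were those of SNAI1 (7.4 kb), SNAI2 (13.1 kb), VIM (14.1 kb) and TWIST2 (16.4 kb). With the start sites of all annotated transcripts, 2 of 19 regions (10.5%, interval 1.30 to 33.1%) lay within 2 kb, compared with 20.0% of all shared regions, and both were near starts of retained-intron transcripts, in CDH2 and FN1. Of the rest, 9 lay in introns, 8 between genes and 0 in exons. The member was the gene with the nearest protein-coding start at 15 of the 19, a count favoured by taking regions near the members. No share over all shared regions was worked out for these positions or for canonical start sites. Peaks within 2 kb of the canonical start were found in replicate 2 alone, at ZEB1 (given above) and in the coding sequence of ZEB2, 1976 bp from its start, with a fold enrichment of 2.12 on 20 reads and a −log10 q of 0.823.

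Peaks with no partner were mostly weak. In the windows of the members, 19 of 35 replicate 1 peaks (54.3%, exact interval 36.6 to 71.2%) and 19 of 68 replicate 2 peaks (27.9%, 17.7 to 40.1%) were overlapped by the other list, compared with 59.6% and 31.7% over the genome. The 16 unpaired replicate 1 peaks had fold enrichments of 1.82 to 3.49 with a median of 2.38 (3.41 for those in shared regions), and the 49 unpaired replicate 2 peaks ran from 1.999 to 6.06 with a median of 3.06 (6.11 for those in shared regions). A site listed in 1 replicate can be missing from the other list, so a count of 0 shared regions does not show that FOXC1 was absent. The cause of the unpaired peaks was not tested.

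The sequences under the summits were then compared. The forkhead consensus was present within 50 bp of the summit in 4 of the 19 regions (21.1%, exact interval 6.05 to 45.6%), compared with 48.7% of all shared regions and 52.7% of all reproducible regions. In windows 500 bp downstream it was present in 3 of 19 (15.8%) and in 10.8% of all. Of the 7 reproducible regions of the members, 1 had it, that in CDH2 intron 7. GTAAACA itself, which is among the 4 forms counted, was present in 0 of 19 (interval 0 to 17.6%) and in 20.8% of all shared regions.

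This share rested on where the summit was placed. Around the summits of replicate 1 it was 2 of 19 (10.5%, beside 44.1% of all shared regions), around those of replicate 2 it was 8 of 19 (42.1%, beside 48.7%), and within 100 bp of the midway summit it was 10 of 19 (52.6%, beside 59.1%). The forkhead share of the members was below that of all shared regions in each of these settings, by differing amounts, and a share of 19 regions has a wide interval. A match is a description of the letters and does not show binding to them.

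The AP-1 sequence TGAGTCA, bound by dimers of FOS and JUN proteins, was present within 50 bp of the summit in 7 of the 19 regions (36.8%, exact interval 16.3 to 61.6%), compared with 16.6% of all shared regions and 19.6% of all reproducible ones. In windows 500 bp downstream it was present in 1 of 19 (5.26%) and in 1.93% of all. The regions with it were the SNAI1 region 34.01 kb upstream, both SNAI2 regions, the ZEB2 regions 33.4 kb upstream and 162 kb downstream, the CDH2 region in intron 6 and the FN1 region in intron 13, which had 2 copies. Within 50 bp of the summit, no region held both the forkhead consensus and TGAGTCA. Within 100 bp each was present in 10 of the 19, so there the sets with each match overlapped. TGAGTCA was present within 100 bp in 26.5% of all shared regions, and no share with both was worked out. The strongest regions of VIM and CDH2 held neither, as the sequences printed above show. Around the summits of the replicates taken alone, TGAGTCA was present in 8 of 19 (replicate 1) and 5 of 19 (replicate 2), compared with 15.5% and 16.7% of all shared regions.

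The E-box CAGGTG, which SNAI and ZEB factors bind, was present at 1 of the 19 summits, that of SNAI2, and at 3.59% of all shared summits. It was found 500 bp downstream in 4 of 19 and in 8.03% of all. The GC content of the summit windows had a median of 41.6% at the members and 39.6% at all shared regions. No match to the forkhead consensus, TGAGTCA or CAGGTG overlapped another of these at a summit of the members.

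**Figure D5:**
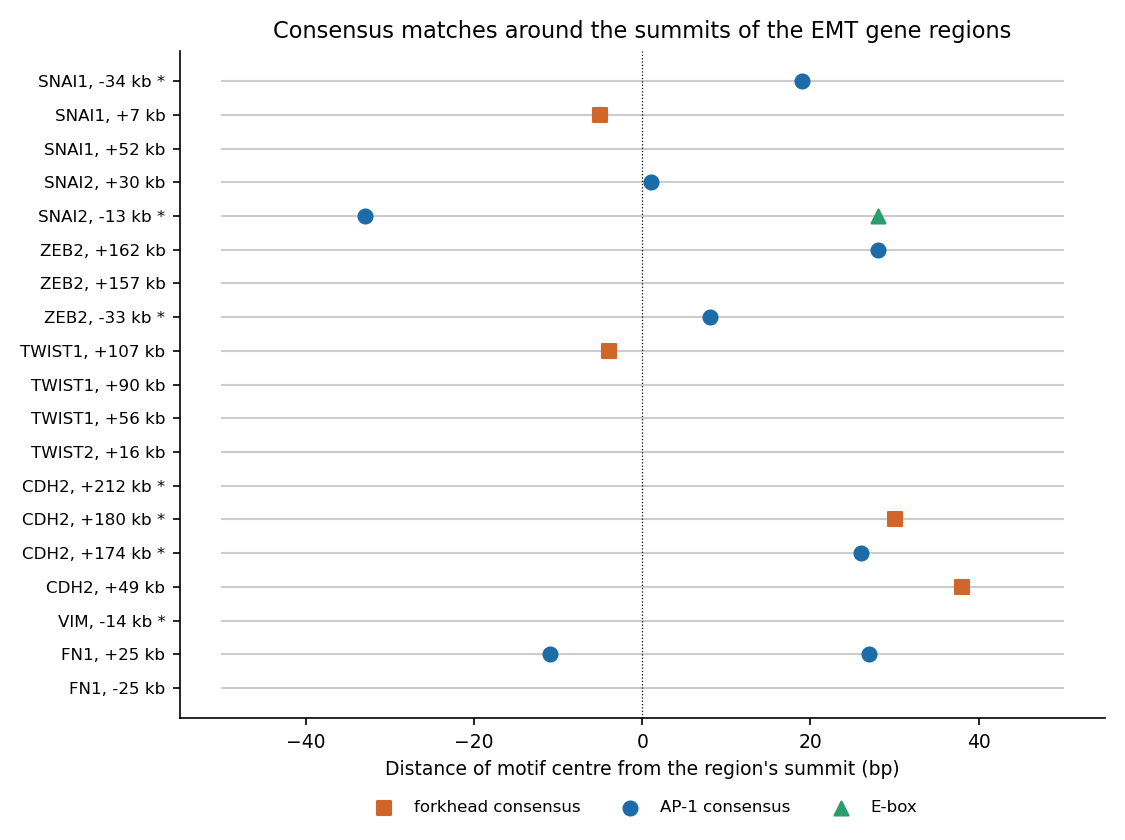
Position of consensus matches within 50 bp of the summit of each of the 19 EMT gene regions (x axis, distance of the motif centre from the summit in bp), 1 line per region, named by gene and distance to its start site, with an asterisk at an IDR of 0.05 or less. Squares are forkhead matches (4 regions), circles TGAGTCA (7 regions) and triangles CAGGTG (1 region), and the lines of VIM and of the strongest CDH2 region are empty.

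To set the members beside the wider EMT programme, 66 further genes were counted in 3 lists. Of 24 genes of epithelial junctions and identity, 14 (58.3%) had a shared region and 9 (37.5%) a reproducible one. Of 22 genes of the mesenchymal matrix, cytoskeleton and adhesion, 14 (63.6%) had a shared region and 7 (31.8%) a reproducible one. Of 20 other EMT regulators, 12 (60%) had a shared region and 8 (40%) a reproducible one. These shares stand beside 46.6% and 26.8% of all protein-coding genes, and the lists had 10.1, 9.85 and 11.1 shared regions per Mb of window. Genes of a list can share a region where their windows overlap, and across lists AXL and TGFB1 had their strongest region in common.

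Regions at CTNNB1 and SMAD3 had higher fold enrichments than any shared region of the members in both replicates. In the window of CTNNB1, which encodes beta-catenin, the highest region had fold enrichments of 26.0 and 64.3 and lay in an intron of ULK4, and 16.1 kb upstream of SMAD3, a signal transducer of TGF-beta, it had 25.6 and 52.3. HMGA2, a chromatin protein gene, had 15.6 and 22.6. Among the epithelial genes, ESRP2, a splicing regulator of epithelial cells, had 16.6 and 24.6 at a site 35.8 kb from its start. That site lay in an intron of NFATC3 and in an exon of ENSG00000262514, 532 bp from a start of the latter. The tight junction gene CLDN1 had 12.9 and 23.1 at 23.1 kb upstream. Among the mesenchymal genes, CD44, an adhesion receptor for hyaluronan, had 10.5 and 21.2 in the transcribed part of SLC1A2, 122 kb from the CD44 start. LOXL2, a matrix crosslinking enzyme, had 10.1 and 21.4 in an intron.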

How the data were processed

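FOXC1 ChIP-seq of J82 cells was analysed from 1 deposited peak list per ChIP replicate. According to the study's methods, single-end reads of 75 bp were mapped with bwa to hg19, and MACS2 2.2.7.1 called the peaks of each ChIP library over its input. Files of the input libraries were not analysed here. The threshold behind the lists is not given in the sources used here. The lowest −log10 p was 2.00 in the list of replicate 1 and 2.02 in that of replicate 2.

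For each peak the authors deposited an interval with a summit, a score (not used here), a fold enrichment (a ratio of ChIP pileup to local background, each with 1 added), a −log10 p and a −log10 q. Peaks on chromosomes 1 to 22, X and Y were kept, which removed 42 entries from the 22447 of replicate 1 and 43 from the 41832 of replicate 2. Depth, about 43200000 ChIP reads in replicate 1 and 41500000 in replicate 2, was worked out from the steps of −log10 p, the smallest peak width and a genome size of 2.7 Gb. Reads over the summit were solved from fold enrichment and −log10 p for 99.8% and 99.5% of peaks, among them all peaks at the members. The local background of replicate 2 was in reads scaled by 0.904. Exact Poisson 95% intervals treat the background as fixed and, like the exact Clopper-Pearson intervals of shares, cover counting error only.

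Peaks sharing at least 1 bp were merged into shared regions, with the summit midway between the strongest peaks of the replicates. The IDR, a copula mixture model, was fitted to all 13238 shared regions with code written here, and it need not match the tool of the study. The code was tested on simulated data made with the starting values of the fit. That test cannot show how the fit does on data with other values. Genes came from GENCODE 44 mapped to GRCh37, and sequences from that genome. Motifs were searched on both strands within 50 bp of the summit and of a position 500 bp downstream. Python 3.11.15, numpy 2.4.6, pandas 2.3.3, scipy 1.17.1, pysam 0.24.0 and matplotlib 3.10.9 were used.

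The members and the lists of wider EMT genes were chosen with earlier results of these data known. Each member was described by its strongest shared region and any other at an IDR of 0.05 or less, with weaker ones in brief, and from each wider list the 3 genes with the strongest shared region were named, except 2 genes whose values are not reported here. Alternatives were stricter peak filters, other overlap rules and windows, other motif windows, and each replicate alone.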

Additional observations from a re-analysis of the deposited data

How the results depend on the processing

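Windows around canonical transcripts, the counts without CDH2 and the settings for TGAGTCA were added once the data were known. Of 49 recomputed values, 29 stayed close to the value in the report (within 1.5 times a count, the interval of a share or the SD of the ratios) and 20 moved. The 16 fold enrichments of the strongest regions in a single replicate are not among them. With 2 replicates, each value of the same region lies within 1 SD of the mean by construction. That does not hold where another region was the strongest in a single replicate, and the TWIST1 value of 4.96 in replicate 2 moved. The windows and filters set the counts most. The 103 peaks of the members became 33 at a −log10 q of at least 5, 21 at a fold enrichment of at least 5, 55 with windows of 10 kb, 156 with windows of 100 kb and 39 in gene bodies alone, and 35 to 68 with a replicate left out. The 19 shared regions became 9 and 7 under those filters, and 11, 29 and 8 in those windows. The 8 members with a shared region became 5 at a fold enrichment of at least 5 and 4 in gene bodies alone. All 10 members had a shared region within 100 kb. The share of protein-coding genes with a shared region was not worked out at these settings, so these counts have no background beside them. Without the CDH2 window, 4 reproducible regions were left of 7. The forkhead share was 52.6% within 100 bp of the summit, 0% for GTAAACA alone and 10.5 to 42.1% with the summits of a single replicate. The consensus read backwards, which has ATAAATA in common with it, was found in 15.8%, beside 16.0% of all shared regions. With protein-coding start sites alone, 0% of the regions lay within 2 kb. Of the wider genes, 40 of 66 had a shared region, and 26 did so in gene bodies alone and 26 with −log10 q held to 5 or more. For gene bodies alone and for that filter, too, no share of protein-coding genes was worked out. In a single replicate another region was the strongest at TWIST1 (107 kb downstream of the start, 4.96 in replicate 2) and at FN1 (4.53 in replicate 1). Density stayed between 8.18 and 9.74 shared regions per Mb over the windows tried. The cause of these moves was not tested where the setting itself does not give it. No paired analysis was possible because both ChIP libraries belong to 1 group and no group was compared with them.

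The data are peak lists of 1 cell line, with no expression, so no site can be tied to the activity of a gene. A window assigns a site to every gene within reach, and 4 of the 19 regions were nearer to another protein-coding start. Sites below the threshold of a list were not seen. With 2 replicates an SD is imprecise, and regions above an IDR of 0.05 rested on 12 to 34 reads in replicate 1.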

Other observations

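Some of the wider EMT genes had many FOXC1 sites in their windows, and they were singled out after their counts had been seen. Each wider gene named in this section had more shared regions than CDH2, as had 2.59% of the protein-coding genes. Their windows were longer than the median of 127 kb for protein-coding genes. TGFB2, which encodes a TGF-beta ligand, had 9 shared regions in a window of 199 kb, more than any member, and 2 of them were reproducible. The strongest had fold enrichments of 4.11 and 18.5 in replicates 1 and 2 (mean 11.3 ± 10.1, SD, n = 2). HMGA2 had 7 shared regions in 242 kb. TGFBR2, the gene of a TGF-beta receptor, had 5 in 188 kb, of which 3 were reproducible. Fold enrichments there were up to 12.9 and 24.8, in an intron of TGFBR2 itself.

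Genes of the epithelial and of the mesenchymal list were both among those with many sites. GRHL2, which encodes a transcription factor that maintains epithelial identity, had 6 shared regions in 277 kb, 5 of them reproducible, and the strongest lay in an intron with fold enrichments of 11.1 and 16.5 (mean 13.8 ± 3.82, SD, n = 2). TJP1, the gene of a tight junction scaffold protein, had 6 in 370 kb, of which 4 were reproducible. Among the mesenchymal genes, ITGB1, an integrin gene, had 6 in 219 kb. CD44 had 5 in 194 kb and the collagen gene COL5A1 had 5 in 303 kb. Each of these 3 genes had 2 reproducible regions. No shared region lay in the windows of 10 of the 24 epithelial and 8 of the 22 mesenchymal genes. The same was so for 10771 of the 20163 protein-coding genes.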
